A study of Homo sapiens with 18 samples.

Results

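Caveolae are small flask-shaped pits of the plasma membrane that buffer membrane tension, take part in signalling and lipid handling, and are held in place by actin filaments. Their coat is built from caveolins, which insert into the membrane, and from cavins, which assemble on them from the cytosol, while EHD-family ATPases close the neck. The 5 genes described here are the caveolins CAV1 and CAV2, the cavins CAVIN1 and CAVIN3, and EHD2, the ATPase of the caveolar neck. They were taken by symbol from the count tables of an RNA-seq study, each of which lists 60683 genes, and each of the 5 symbols matched 1 gene. All 5 passed the filter on low counts in both tables.

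Poly(A) RNA of HCT-116 cells, a line long established from a human colorectal carcinoma and cultured in DMEM with serum, was sequenced in 6 groups of 3, 18 libraries in all. In the ACTB table the cells all carried an actin knockout: ACTB-mut cells were labelled as over-expressing mutant actin, which the series design names as H73A, ACTB-WT cells as over-expressing wild-type actin, and Actin KO cells stably carried an empty construct. In the SETD3 table, SETD3 KO2 and SETD3 KO1 were labelled as knockouts of SETD3, the enzyme that methylates the actin histidine replaced in H73A, and SETD3 CT was their control. The labels gave cell line HCT-116 for all libraries except KO2 replicate 3, which read HCT-117 and was kept. The labels did not say whether the replicates were separate cultures or whether a knockout line was a clone, so the p-values below measure the spread between these samples.

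ACTB-table libraries held between 5144386 and 11271910 expected counts and SETD3-table libraries between 3389586 and 11652967, of which KO2 replicate 1 and CT replicate 2 were the shallowest. Levels are given as CPM, that is counts per 1000000 counts of the library after scaling by TMM. ACTB RNA was low in all 3 groups of its table, at 32.0 to 47.1 CPM in ACTB-mut, 23.2 to 31.0 CPM in ACTB-WT and 14.9 to 24.9 CPM in Actin KO libraries, and it lay between 662 and 1456 CPM in the 9 SETD3-table libraries. No abundant ACTB transcript was thus counted in the libraries labelled as over-expressing actin, and whether the construct's RNA could be counted was not tested. SETD3 RNA was 15.6 to 27.7 CPM in KO2 libraries and 6.34 to 17.1 CPM in KO1 libraries, against 14.0 to 36.0 CPM in CT libraries, so it overlapped with the control in both lines. RNA can persist after an edit that removes the protein, so these values do not check the SETD3 labels. Colorectal epithelial markers summed to 8122 to 13590 CPM in every library, with KRT18 the highest and CDX1 and LGR5 at 0 throughout. Markers of the other cell types known for caveolae were scarce: the sums over 10 fibroblast, 9 endothelial, 5 adipocyte and 6 muscle markers did not exceed 19.9, 3.97, 1.57 and 10.0 CPM in any library, and FAP, POSTN, LUM, COL3A1, TEK, KDR, ERG, CLDN5, PLIN1, FABP4, CIDEC and MYH7 were at 0 in all 18. Blood markers, of 6 genes, summed to at most 14.3 CPM, with PTPRC and CD3E at 0.

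CAV1 (ENSG00000105974, chr7:116524785-116561184, plus strand) and CAV2 (ENSG00000105971, chr7:116287380-116508541, plus strand) lie next to each other in the same orientation, 16.2 kb apart in GENCODE release 29 on GRCh38. CAVIN1 (ENSG00000177469) lies at chr17:42402452-42423517 on the minus strand, CAVIN3 (ENSG00000170955) at chr11:6318946-6320647 on the minus strand, and EHD2 (ENSG00000024422) at chr19:47713343-47743134 on the plus strand. The promoters of the adjacent caveolin genes are shown because CAV1 and CAV2 had like differences in every comparison, and that of EHD2 for comparison, as a gene without a call. The table matched these 3 of the 5 genes, and not CAVIN1 and CAVIN3. Each run is the 250 bases before the start of transcription in RefSeq on GRCh38.p14, 5′ to 3′ on the plus strand, with matches to the GC box, GGGCGG on either strand, in capitals. The windows are chr7:116524759-116525008 for CAV1, chr7:116499488-116499737 for CAV2 and chr19:47713172-47713421 for EHD2. The CAV2 window lies inside the GENCODE span of CAV2, which begins far before it at 116287380. The windows of CAV1 and EHD2 also reach into the GENCODE spans of their genes, which begin at 116524785 and 47713343.
CAV1: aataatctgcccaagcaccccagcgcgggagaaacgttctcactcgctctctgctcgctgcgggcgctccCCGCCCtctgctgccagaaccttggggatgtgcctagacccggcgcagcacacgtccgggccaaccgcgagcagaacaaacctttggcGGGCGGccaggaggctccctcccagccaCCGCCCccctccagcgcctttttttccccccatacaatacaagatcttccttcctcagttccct
CAV2: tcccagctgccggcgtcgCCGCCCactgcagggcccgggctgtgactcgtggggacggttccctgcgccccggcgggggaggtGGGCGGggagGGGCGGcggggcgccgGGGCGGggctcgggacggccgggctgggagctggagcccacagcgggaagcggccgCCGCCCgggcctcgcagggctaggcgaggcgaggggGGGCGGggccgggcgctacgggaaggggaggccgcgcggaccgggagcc
EHD2: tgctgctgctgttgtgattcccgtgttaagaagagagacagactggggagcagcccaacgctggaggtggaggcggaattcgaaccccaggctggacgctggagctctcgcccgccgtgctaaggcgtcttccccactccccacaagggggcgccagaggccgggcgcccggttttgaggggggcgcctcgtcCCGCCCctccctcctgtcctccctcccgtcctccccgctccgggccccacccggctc
With the 50 bases after the start included, the window held 3 GC boxes for CAV1, 6 for CAV2 and 1 for EHD2, and 45.0% of the 35116 promoter windows of that length in the reference table held at least 1. The CAV2 window was the richest in G and C at 82.7%, with 43 CpG dinucleotides, against 62.3% and 19 for CAV1 and 71.0% and 30 for EHD2, beside a median of 58.7% over all windows. No window of these 3 genes held the AP-1 motif TGANTCA, the TEAD motif GGAATG or a CArG box on either strand, motifs that 7.7%, 14.0% and 1.3% of all windows held. The table gave 3 starts for CAV1, 2 for CAV2 and 1 for EHD2, and the first listed is printed.

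The caveolins CAV1 and CAV2 followed each other from group to group, but not from library to library within each group of the ACTB table. CAV1, the membrane protein around which caveolae form, had 102, 96.1 and 95.4 CPM in ACTB-mut libraries, 42.2, 49.5 and 44.3 CPM in ACTB-WT libraries, and 180, 154 and 160 CPM in Actin KO libraries. No library of any of the 3 groups reached into the range of another, with ACTB-WT lowest and ACTB-mut in between. Of all genes, 9.08% had ACTB-WT and 9.16% ACTB-mut libraries all below Actin KO, and 9.93% had ACTB-mut all above ACTB-WT. The share of genes with all 3 groups apart was not counted. CAV2, the caveolin that joins CAV1 in mixed oligomers, had 112, 86.7 and 113 CPM in ACTB-mut libraries, 35.0, 51.5 and 54.2 CPM in ACTB-WT libraries, and 148, 196 and 148 CPM in Actin KO libraries. These groups did not overlap either, and they stood in the same order. Within Actin KO, the library lowest in CAV1 (154 CPM) was the highest in CAV2 (196 CPM).

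The cavins differed from each other. CAVIN1, the cavin that caveola formation needs, had 121, 177 and 121 CPM in ACTB-mut libraries, 138, 138 and 152 CPM in ACTB-WT libraries, and 168, 161 and 178 CPM in Actin KO libraries. Its ACTB-mut libraries overlapped with those of both other groups, and its ACTB-WT libraries lay just under the Actin KO ones. CAVIN3, a cavin that binds CAVIN1, had 80.9, 73.5 and 96.2 CPM in ACTB-mut libraries, 31.4, 31.3 and 36.2 CPM in ACTB-WT libraries, and 53.1, 59.3 and 64.1 CPM in Actin KO libraries. Here no group overlapped with another, but the order differed from that of the caveolins, since ACTB-mut and not Actin KO was highest. EHD2, which ties the caveolar neck to the membrane and limits how far caveolae move, had 63.5, 78.3 and 95.1 CPM in ACTB-mut libraries, 103, 106 and 99.2 CPM in ACTB-WT libraries, and 114, 134 and 99.2 CPM in Actin KO libraries. All ACTB-mut libraries were below all others, and the remaining groups overlapped.

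**Figure D1:**
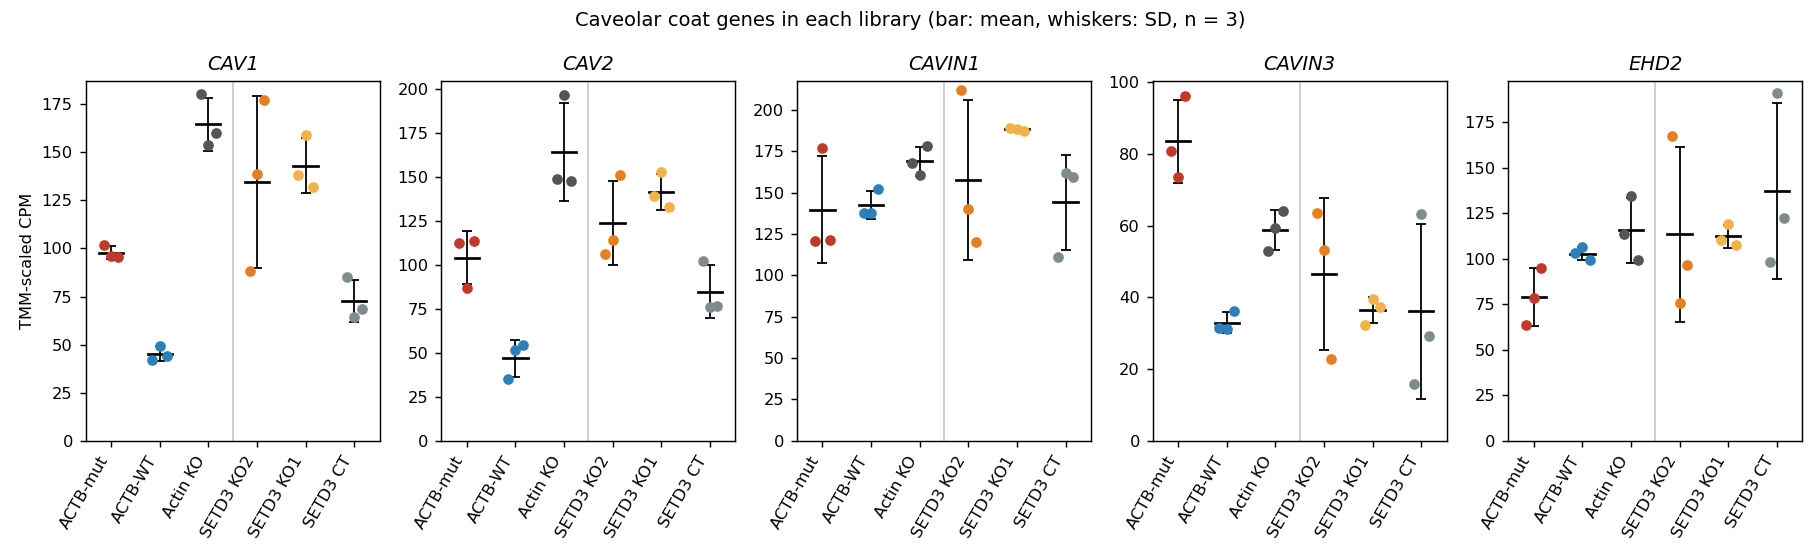
Level of each gene in every library, with TMM-scaled CPM on the vertical axis from 0, 1 panel a gene and the groups on the horizontal axis. Points are libraries, bars the means and whiskers the SD (n = 3), and a grey line parts the tables, which were scaled separately. CAV1 and CAV2 show the same steps, with ACTB-WT libraries at most 49.5 and 54.2 CPM and Actin KO libraries at least 154 and 148 CPM.

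ACTB-mut and ACTB-WT cells differ in the H73A change, which removes the histidine that SETD3 methylates. CAV1, CAV2 and CAVIN3 were higher in ACTB-mut cells and CAVIN1 and EHD2 did not pass the test. CAV1 averaged 97.8 ± 3.46 CPM in ACTB-mut and 45.3 ± 3.75 CPM in ACTB-WT cells (SD, n = 3 each), a 2.16-fold difference with a log2 of 1.11 (SE 0.15, adjusted p = 0.0021, edgeR quasi-likelihood test over 13882 genes). CAV2 averaged 104 ± 15.1 CPM against 46.9 ± 10.4 CPM in ACTB-WT, with a log2 difference of 1.15 (SE 0.20, adjusted p = 0.00995 by the same edgeR test). CAVIN3 averaged 83.5 ± 11.6 CPM against 33.0 ± 2.82 CPM in ACTB-WT, with a log2 difference of 1.34 (SE 0.19, adjusted p = 0.00291 by edgeR). Thus 3 of the 5 genes were called higher, in a comparison that called 1.24% of all genes in either direction and 0.634% higher. The 5 genes were chosen with earlier results of these data known, so this contrast is not a test of the set. The log2 difference was -0.03 (SE 0.16, adjusted p = 0.977, edgeR) for CAVIN1, which turned to 0.11 with offsets for GC content. EHD2 had a log2 difference of -0.38 (SE 0.18, adjusted p = 0.411, edgeR), although its ACTB-mut libraries were all below its ACTB-WT libraries, as for 8.14% of all genes. The ACTB-mut libraries of the 3 called genes were all above the ACTB-WT ones, as for 9.93% of all genes. The 3 calls held under all 16 alternative settings tried. Over 9079 genes the log2 difference of this comparison correlated with GC content at r = -0.23, and the caveolin transcripts are AT-rich (43.8% GC for CAV1, 43.0% for CAV2) while that of CAVIN3 is not (68.1%).

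ACTB-WT against Actin KO sets wild-type actin against an empty construct in the same knockout background. CAV1 averaged 45.3 ± 3.75 CPM in ACTB-WT and 165 ± 13.8 CPM in Actin KO cells (SD, n = 3 each), that is 27.5% of the Actin KO level (log2 -1.86, SE 0.15, adjusted p = 6.39e-06, edgeR). CAV2 averaged 46.9 ± 10.4 CPM against 164 ± 27.8 CPM in Actin KO, or 28.6% (log2 -1.80, SE 0.20, adjusted p = 1.62e-04, edgeR). Both caveolins were thus lower by nearly the same factor. CAVIN3 averaged 33.0 ± 2.82 CPM against 58.8 ± 5.55 CPM in Actin KO, or 56.1% (log2 -0.83, SE 0.19, adjusted p = 0.0499, edgeR), a call that passed in 3 of 16 alternative settings. Without any 1 of the 6 libraries its adjusted p lay between 0.0794 and 0.178 in edgeR, with log2 differences between -0.91 and -0.77. With it, 3 of 5 genes were called lower, in a comparison that called 1.12% of all genes and 0.677% lower. How the genes were chosen limits this contrast in the same way. CAVIN1 averaged 143 ± 8.46 CPM in ACTB-WT and 169 ± 8.90 CPM in Actin KO cells (log2 -0.25, SE 0.16, adjusted p = 0.639, edgeR), with all ACTB-WT libraries below all Actin KO libraries. So were those of CAV1, CAV2 and CAVIN3, as for 9.08% of all genes. EHD2 had a log2 difference of -0.17 (SE 0.18, adjusted p = 0.829, edgeR) with overlapping libraries. These are bulk samples, so fewer cells with a transcript and less of it per cell cannot be told apart.

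ACTB-mut against Actin KO sets the H73A form against the empty construct. CAV1 was the only 1 of the 5 genes called, lower in ACTB-mut, in a comparison that called 0.922% of all genes and 0.598% lower. It averaged 97.8 ± 3.46 CPM in ACTB-mut and 165 ± 13.8 CPM in Actin KO cells (SD, n = 3 each), or 59.4% (log2 -0.75, SE 0.15, adjusted p = 0.0217, edgeR). That call was lost whichever library was left out, with adjusted p between 0.0554 and 0.114 and log2 differences between -0.81 and -0.69, and it passed in 9 of 16 alternative settings. CAV2 was at 63.4% of the Actin KO level (log2 -0.66, SE 0.19, adjusted p = 0.158, edgeR) and passed in 3 of the 16. All ACTB-mut libraries of CAV1, CAV2 and EHD2 were below all Actin KO libraries, as for 9.16% of all genes. The log2 difference of CAVIN3 was positive, at 0.50 (SE 0.19, adjusted p = 0.285, edgeR), with every ACTB-mut library above every Actin KO library, as for 9.31% of all genes. EHD2 stood at -0.55 (SE 0.18, adjusted p = 0.199) and CAVIN1 at -0.27 (SE 0.16, adjusted p = 0.568) on the log2 scale in the same edgeR fit. These 3 comparisons share their groups in pairs and are not independent of each other. Here too the log2 difference went with GC content over 9079 genes (r = -0.27), while for ACTB-WT against Actin KO it did not (r = -0.02).

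**Figure D2:**
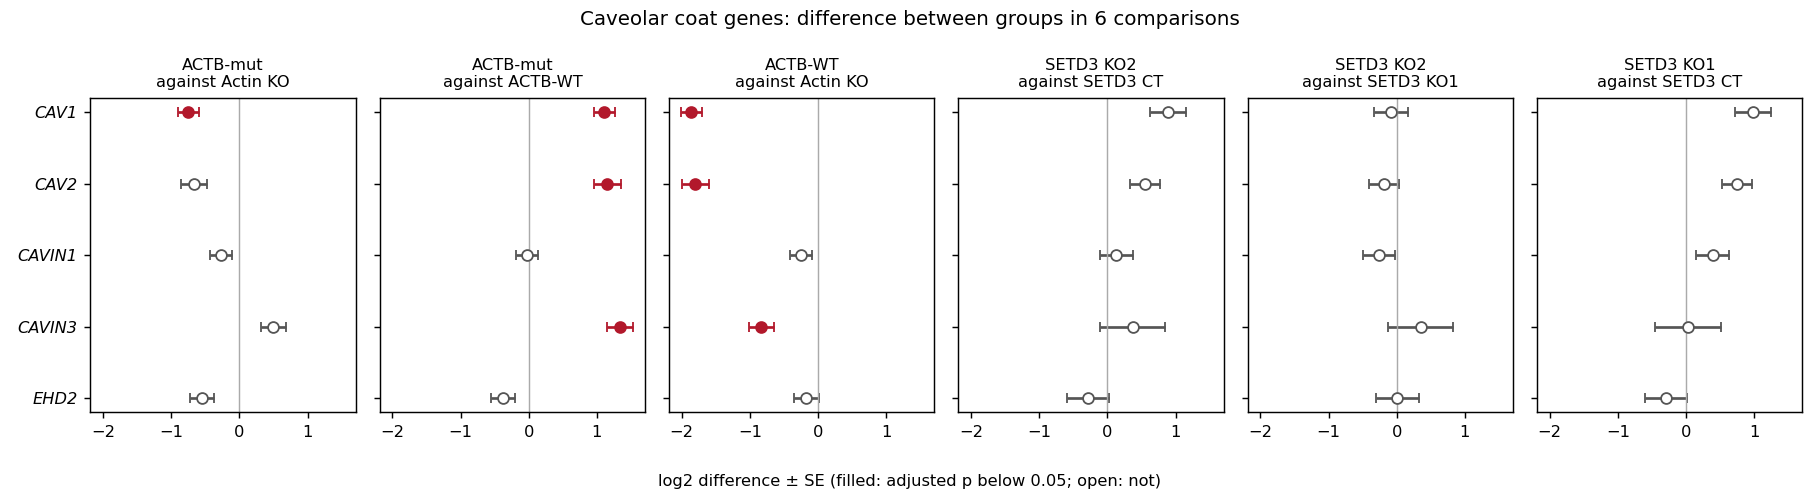
Log2 difference with its SE on the horizontal axis for the 5 genes, listed down the page, in 6 comparisons. Filled points passed an adjusted p of 0.05 in edgeR and open ones did not. The caveolins lie at -1.86 and -1.80 for ACTB-WT against Actin KO and at 1.11 and 1.15 for ACTB-mut against ACTB-WT, and no SETD3 comparison has a filled point.

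In the SETD3 table no gene of the 5 passed the test, though both caveolins were higher in every knockout library than in any control library. CAV1 had 88.2, 139 and 177 CPM in KO2 libraries and 138, 159 and 132 CPM in KO1 libraries, against 85.1, 64.5 and 68.4 CPM in CT libraries. KO2 replicate 1, the shallowest library, lay just above the highest control. CAV2 had 106, 114 and 151 CPM in KO2 libraries and 139, 152 and 133 CPM in KO1 libraries, against 102, 75.8 and 76.5 CPM in CT libraries. Of all 13846 genes, 1.60% had all 6 knockout libraries above all 3 controls, and 4.97% had the KO2 and 6.47% the KO1 libraries above them. KO1 against CT gave CAV1 a log2 difference of 0.98 (SE 0.26, unadjusted p = 0.00236, adjusted p = 0.525, edgeR) and CAV2 one of 0.74 (SE 0.22, unadjusted p = 0.00533, adjusted p = 0.64, edgeR). KO2 against CT gave CAV1 0.89 (SE 0.26, unadjusted p = 0.0043, adjusted p = 0.576, edgeR) and CAV2 0.55 (SE 0.22, unadjusted p = 0.0274, adjusted p = 0.874, edgeR). The same CT libraries serve in both, so the lines do not repeat each other independently. The mean of the lines against CT gave CAV1 0.93 (SE 0.23, adjusted p = 0.425, edgeR) and CAV2 0.64 (SE 0.19, adjusted p = 0.596, edgeR). CAV1 passed in 3 of 19 alternative settings of that comparison, among them the DESeq2 Wald test (adjusted p = 0.0223).

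Few genes of any kind were called against CT: 0.0144% in KO1, 0.0578% in KO2 and 0.0433% for the mean of the lines, with 5.75%, 4.95% and 5.68% of genes at an unadjusted p under 0.05. Of the 5 genes, CAV1 and CAV2 were under that unadjusted p in all 3 comparisons, and DESeq2 called CAV1 for the mean of the lines and none of the 5 for either line alone. CAVIN1 had 212, 140 and 120 CPM in KO2 libraries and 189, 188 and 188 CPM in KO1 libraries, against 111, 162 and 159 CPM in CT libraries. The KO1 libraries lay close together above the controls and the KO2 libraries spread across them. CAVIN3 had 63.7, 53.4 and 22.9 CPM in KO2 libraries and 32.4, 39.6 and 37.5 CPM in KO1 libraries, against 15.8, 63.2 and 29.3 CPM in CT libraries. EHD2 had 168, 75.7 and 96.8 CPM in KO2 libraries and 110, 119 and 107 CPM in KO1 libraries, against 98.5, 191 and 122 CPM in CT libraries. For CAVIN3 and EHD2 the controls alone spanned the KO1 values. The highest EHD2, CAVIN3 and CAVIN1 values within KO2 and within CT came from KO2 replicate 1 and CT replicate 2, the shallowest libraries of the table. The same libraries gave the lowest CAV1 values of their groups (88.2 and 64.5 CPM) and the lowest CAV2 values (106 and 75.8 CPM). The part of depth in this was not tested. Adjusted p-values of CAVIN1, CAVIN3 and EHD2 against CT were at least 0.971 in all 3 edgeR comparisons, with log2 differences between -0.29 and 0.39. KO2 against KO1 called 0.0289% of all genes and none of the 5, whose log2 differences ran between -0.26 for CAVIN1 and 0.35 for CAVIN3 (lowest adjusted p = 0.999, edgeR). None was at an unadjusted p under 0.05 there, as 4.84% of all genes were, and DESeq2 called none of the 5.

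Set in order of mean level over the 6 groups, CAV1 and CAV2 gave the same sequence, with Actin KO highest, then SETD3 KO1, SETD3 KO2, ACTB-mut, SETD3 CT and ACTB-WT lowest. The highest group mean was 3.64 times the lowest for CAV1 and 3.50 times for CAV2, against 2.53 for CAVIN3, 1.74 for EHD2 and 1.35 for CAVIN1. Along that order CAV1 libraries of neighbouring groups overlapped down to ACTB-mut, and ACTB-mut, SETD3 CT and ACTB-WT were then apart from each other. For CAV2 the only neighbours without overlap were SETD3 CT and ACTB-WT. CAVIN1 was highest in SETD3 KO1, which did not overlap with Actin KO below it, and the groups further down (SETD3 KO2, SETD3 CT, ACTB-WT, ACTB-mut) overlapped each with the next. CAVIN3 ran through ACTB-mut, Actin KO, SETD3 KO2, SETD3 KO1, SETD3 CT and ACTB-WT, of which only ACTB-mut was apart from the next. EHD2 ran through SETD3 CT, Actin KO, SETD3 KO2, SETD3 KO1, ACTB-WT and ACTB-mut, where ACTB-WT lay below SETD3 KO1 and ACTB-mut below ACTB-WT without overlap and the others overlapped each with the next. Actin genotype and table cannot be told apart across this order, and no test was made across tables.

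Per kilobase of transcript, which allows genes to be set side by side, CAV2 had the highest level in all 6 groups. In ACTB-mut cells CAV2 stood at 88.3 ± 12.8 and CAVIN3 at 78.4 ± 10.9 CPM per kb, above CAV1 at 38.6 ± 1.37, CAVIN1 at 36.5 ± 8.47 and EHD2 at 29.5 ± 5.92 (SD, n = 3). In ACTB-WT cells CAV2 at 39.8 ± 8.81, EHD2 at 38.5 ± 1.34 and CAVIN1 at 37.2 ± 2.21 CPM per kb were close to each other, and CAV1 was lowest at 17.9 ± 1.48. In Actin KO cells CAV2 reached 139 ± 23.6 CPM per kb, CAV1 65.0 ± 5.43, CAVIN3 55.2 ± 5.21, CAVIN1 44.2 ± 2.32 and EHD2 43.2 ± 6.60. The lengths are medians over annotated transcripts, which for CAV2 ran between 776 and 3301 bases, so a level per kb depends on which transcripts these cells use. Expected counts behind these levels were between 158 and 2142 per gene and library.

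Ratios within a library do not depend on how libraries are scaled. Between groups of the ACTB table the ratio of CAV1 to CAVIN1 was apart and that of CAV2 to CAV1 was not. CAV2 over CAV1 counts were 1.10, 0.902 and 1.19 in ACTB-mut, 0.831, 1.04 and 1.22 in ACTB-WT, and 0.824, 1.28 and 0.921 in Actin KO libraries. These groups overlapped fully. CAV1 over CAVIN1 was 0.841, 0.542 and 0.786 in ACTB-mut, 0.306, 0.359 and 0.290 in ACTB-WT, and 1.07, 0.956 and 0.898 in Actin KO libraries. The log2 ratio of ACTB-WT was lower than that of Actin KO by a difference of -1.62 and ACTB-mut was 1.16 above ACTB-WT, each without overlap (exact two-sided permutation p = 0.1, the smallest that 3 against 3 allow; adjusted p = 0.25 over 35 ratio tests). CAVIN3 over CAVIN1 averaged a log2 of -0.73 ± 0.48 in ACTB-mut, -2.11 ± 0.04 in ACTB-WT and -1.53 ± 0.12 in Actin KO libraries (SD, n = 3). These groups were again apart from each other (exact two-sided permutation p = 0.1 for each pair, adjusted p = 0.25). In the SETD3 table CAV2 over CAV1 was 1.20, 0.822 and 0.852 in KO2 and 1.00, 0.957 and 1.01 in KO1 libraries, against 1.20, 1.18 and 1.12 in CT libraries. KO1 lay below CT without overlap, by -0.24 on the log2 scale, and KO2 overlapped with CT. CAV1 over EHD2 averaged a log2 of 0.27 ± 1.04 in KO2 and 0.34 ± 0.06 in KO1, against -0.87 ± 0.68 in CT libraries (SD, n = 3), without overlap for KO1.

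**Figure D3:**
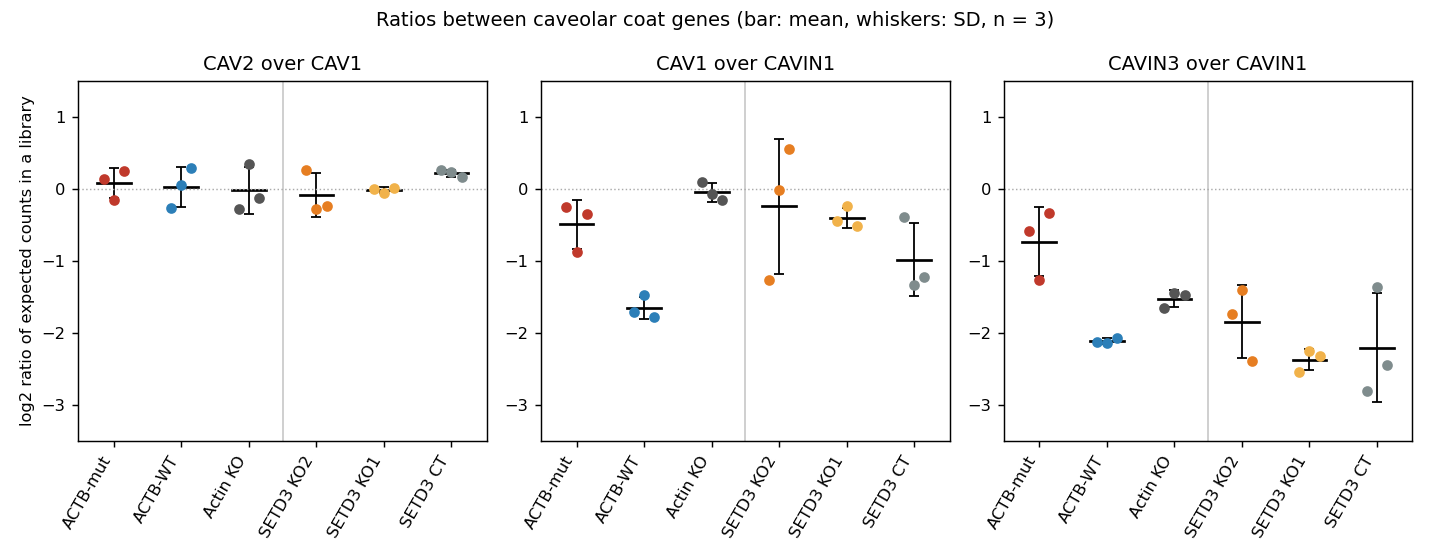
Log2 ratio of expected counts of a pair of genes in the same library on the vertical axis, by group on the horizontal axis, for 3 pairs. Points are libraries, bars means and whiskers the SD (n = 3), and the dotted line marks equal counts. CAV2 over CAV1 stays between -0.28 and 0.35 in every library, while CAV1 over CAVIN1 is lowest in ACTB-WT at -1.48 and below.

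The genes beside the caveolins were examined because CAV1 and CAV2 are neighbours. Of 6 listed genes within 1 Mb, TES, MET, CAPZA2 and ST7 were tested, and TFEC and WNT2 had too few counts. In ACTB-WT against Actin KO none passed the test, yet all 4 had negative log2 differences, with a median of -1.33 beside -0.01 for all genes tested. MET, the receptor of hepatocyte growth factor, whose gene begins 111.2 kb after CAV1 ends, averaged 5.26 ± 1.18 CPM in ACTB-WT and 17.9 ± 5.88 CPM in Actin KO cells (SD, n = 3 each; log2 -1.77, SE 0.41, adjusted p = 0.0548, edgeR). Its ACTB-WT libraries were all below its Actin KO libraries, as for 9.08% of all genes, and it passed in 4 of 16 alternative settings. CAPZA2, a subunit of the actin capping protein, had a log2 difference of -1.36 (SE 0.57, adjusted p = 0.371) in the same edgeR fit. It had few counts, between 9.33 and 47.84 in ACTB-WT libraries, and averaged 3.91 CPM there and 10.1 CPM in Actin KO cells. ST7 had a log2 difference of -1.30 (SE 0.48, adjusted p = 0.275, edgeR) with overlapping libraries. TES, which codes for a LIM-domain protein of focal adhesions, had a log2 difference of -0.61 (adjusted p = 0.386, edgeR). TES ends 28.6 kb before the GENCODE span of CAV2 begins, and much further from the CAV2 promoter window printed above. In ACTB-mut against ACTB-WT all 4 were positive, with a median of 0.92 beside 0.02 for all genes, and MET was at 13.3 ± 2.08 CPM in ACTB-mut. In ACTB-mut against Actin KO all 4 were negative with a median of -0.26. Among SETD3 libraries, 2 of the 4 were positive in each comparison with CT, and medians lay between -0.11 and -0.09. TES averaged 26.1 ± 14.1 CPM in KO2 and 31.0 ± 9.82 CPM in KO1 cells, against 15.8 ± 4.94 CPM in CT cells (SD, n = 3 each). Its KO1 libraries were all above CT, as for 6.47% of all genes. The log2 differences of TES were 0.73 in KO2, 0.96 in KO1 and 0.85 for their mean (adjusted p of at least 0.887, edgeR). MET stood at -0.50, -0.34 and -0.42 in the same comparisons with overlapping libraries (adjusted p of at least 0.998, edgeR). KO2 against KO1 gave TES -0.23 and MET -0.16.

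Wider windows around CAV1, chosen after the values were seen, were filled with genes of at least 5 CPM other than the caveolins. For ACTB-WT against Actin KO, 7 of 9 genes within 5 Mb and 13 of 17 within 10 Mb had negative log2 differences, with medians of -0.70 and -0.61, against -0.11 for all 430 such genes of chromosome 7. FAM3C, which codes for a secreted protein and lies 4.83 Mb from CAV1, was the only 1 of the 17 called (log2 -1.67, SE 0.24, adjusted p = 0.00213, edgeR). On the whole chromosome 17 of these 430 genes were called lower and 10 higher. The comparison called 1.12% of all tested genes, but these include genes under 5 CPM. The share called among all genes of at least 5 CPM was not counted. For ACTB-mut against ACTB-WT the medians within 5 and 10 Mb were 0.52 and 0.38, all 9 and 15 of 17 genes were positive, and FAM3C was again the only 1 called (log2 1.40, SE 0.24, adjusted p = 0.0101, edgeR). Over the chromosome 6 of the 430 genes were called lower and 5 higher, where 1.24% of all tested genes, again of any level, were called. For ACTB-mut against Actin KO the medians were -0.09 and -0.20 with no call, and again 7 of 9 and 13 of 17 genes were negative. Over the chromosome 21 of the 430 genes were called lower and 3 higher there, in a comparison that called 0.922% of all tested genes of any level. The cells were not tested for the number of copies of this region.

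**Figure D4:**
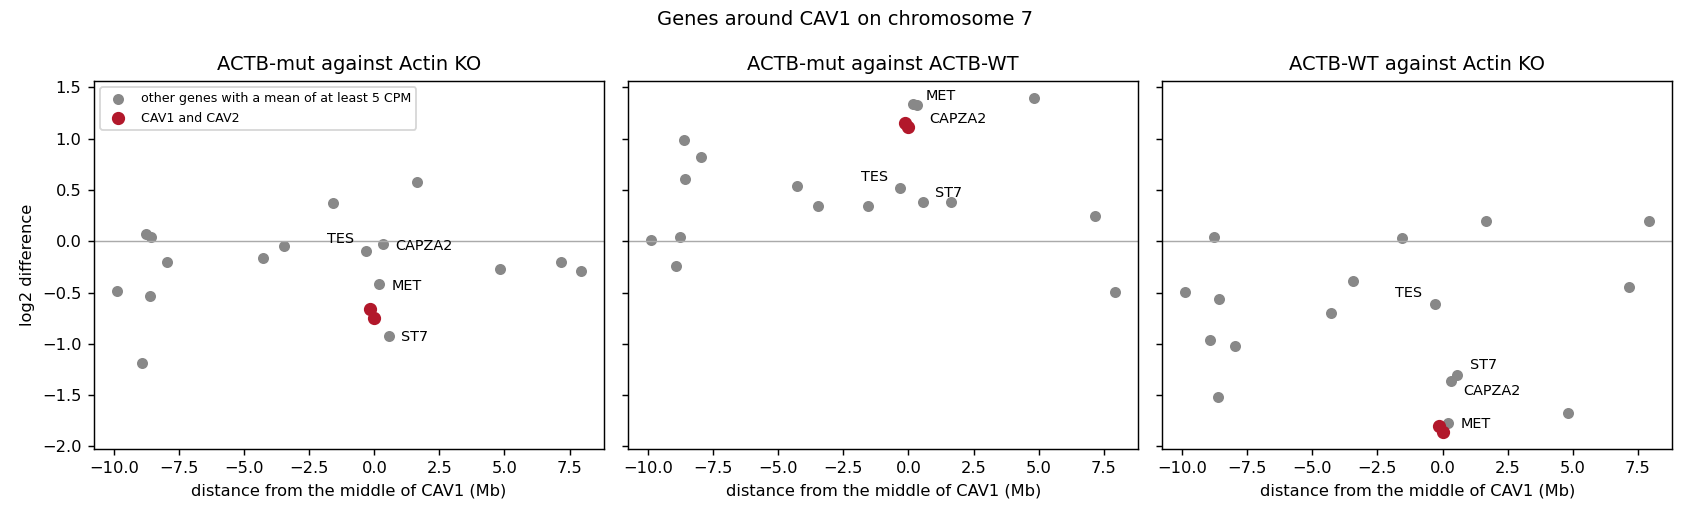
Log2 difference on the vertical axis against distance from the middle of CAV1 in Mb on the horizontal axis, for genes of chromosome 7 within 10 Mb with a mean of at least 5 CPM, in the 3 comparisons of the ACTB table. Red points are CAV1 and CAV2 and grey points other genes. For ACTB-WT against Actin KO, MET at -1.77, CAPZA2 at -1.36 and ST7 at -1.30 lie near the caveolins, and genes at 1.57 Mb before and 1.65 Mb after CAV1 lie near 0.

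The rest of the caveolar machinery held 1 called gene. Of 16 other coat, neck and partner genes, 11 were tested. CAVIN2, a further cavin, and EHD3 had 0 counts in all 18 libraries. CAV3, the muscle caveolin, had 30 counts (2.71 CPM) in KO2 replicate 2 and 0 in the other libraries. CAVIN4, the muscle cavin, had at most 21 counts (2.82 CPM, ACTB-WT replicate 2) in the ACTB table and 18.0 counts (5.73 CPM, KO2 replicate 1) in the SETD3 table, and was at 0 in 11 libraries. DNM3 also stayed under the filter, with 40 and 43 counts summed over the libraries of the ACTB and SETD3 tables. FLNA, the actin crosslinker that links caveolin to actin filaments, was that gene. It averaged 420 ± 102 CPM in ACTB-mut, 688 ± 52.4 CPM in ACTB-WT and 767 ± 62.4 CPM in Actin KO cells (SD, n = 3 each). It was lower in ACTB-mut than in Actin KO (log2 -0.87, SE 0.15, adjusted p = 0.0122) and than in ACTB-WT (log2 -0.71, SE 0.15, adjusted p = 0.0309) in edgeR, the second of which passed in 8 of 16 alternative settings and had an adjusted p of 0.0931 with GC offsets. For ACTB-WT against Actin KO the members with the lowest p were PACSIN2, a membrane-bending protein of the caveolar neck (log2 -0.35, adjusted p = 0.625, edgeR), and its relative PACSIN3 (log2 0.30, adjusted p = 0.677, edgeR). The list's medians were -0.09 (ACTB-mut over Actin KO), -0.20 (ACTB-mut over ACTB-WT) and 0.03 (ACTB-WT over Actin KO). Over all genes tested the medians of these comparisons were 0.03, 0.02 and -0.01. Of all genes, 0.922%, 1.24% and 1.12% were called in them, in the same order.

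Other endocytic coats and the supply of cholesterol, which caveolae need, showed no call in any comparison. Of all genes, only 0.922% to 1.24% were called in the ACTB-table comparisons. An absence of calls therefore says little about lists of this size. The flotillins, which form other membrane domains, stood at 78.0 CPM in ACTB-mut, 107 CPM in ACTB-WT and 98.9 CPM in Actin KO cells for FLOT1 and at 48.8, 55.1 and 68.2 CPM for FLOT2, with adjusted p of at least 0.345 in edgeR. Of 22 clathrin coat genes 20 were tested, with medians of -0.17 for ACTB-mut over Actin KO, -0.29 for ACTB-mut over ACTB-WT and 0.04 for ACTB-WT over Actin KO. Their lowest p-values belonged to FCHO1, an initiator of coated pits, in ACTB-mut against Actin KO (log2 -0.81, adjusted p = 0.0737, edgeR), to EPN1, an epsin, in ACTB-mut against ACTB-WT (log2 -0.66, adjusted p = 0.0575, edgeR) and to AP2A2 in ACTB-WT against Actin KO (log2 -0.91, adjusted p = 0.0669, edgeR). The second lowest belonged to further subunits of the AP2 adaptor, namely AP2M1 at -0.54 and -0.54 in the ACTB-mut comparisons and AP2B1 at -0.66 in ACTB-WT against Actin KO. Of 24 cholesterol genes 23 were tested in the ACTB table. SQLE, the squalene epoxidase of sterol synthesis, had the lowest p in ACTB-mut against ACTB-WT, at 17.5 CPM in ACTB-mut and 43.5 CPM in ACTB-WT (log2 -1.31, adjusted p = 0.064, edgeR), and was at 0.74 in ACTB-WT against Actin KO (adjusted p = 0.377). DHCR7 (-0.52 in ACTB-mut against ACTB-WT), TM7SF2 (-0.68 and -0.67 against Actin KO in ACTB-mut and in ACTB-WT) and LSS (-0.67 in ACTB-mut against Actin KO), all enzymes of sterol synthesis, came next, with adjusted p of at least 0.192 in edgeR. The list's medians were -0.10 for ACTB-mut over Actin KO, -0.01 for ACTB-mut over ACTB-WT and 0.02 for ACTB-WT over Actin KO.

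**Figure D5:**
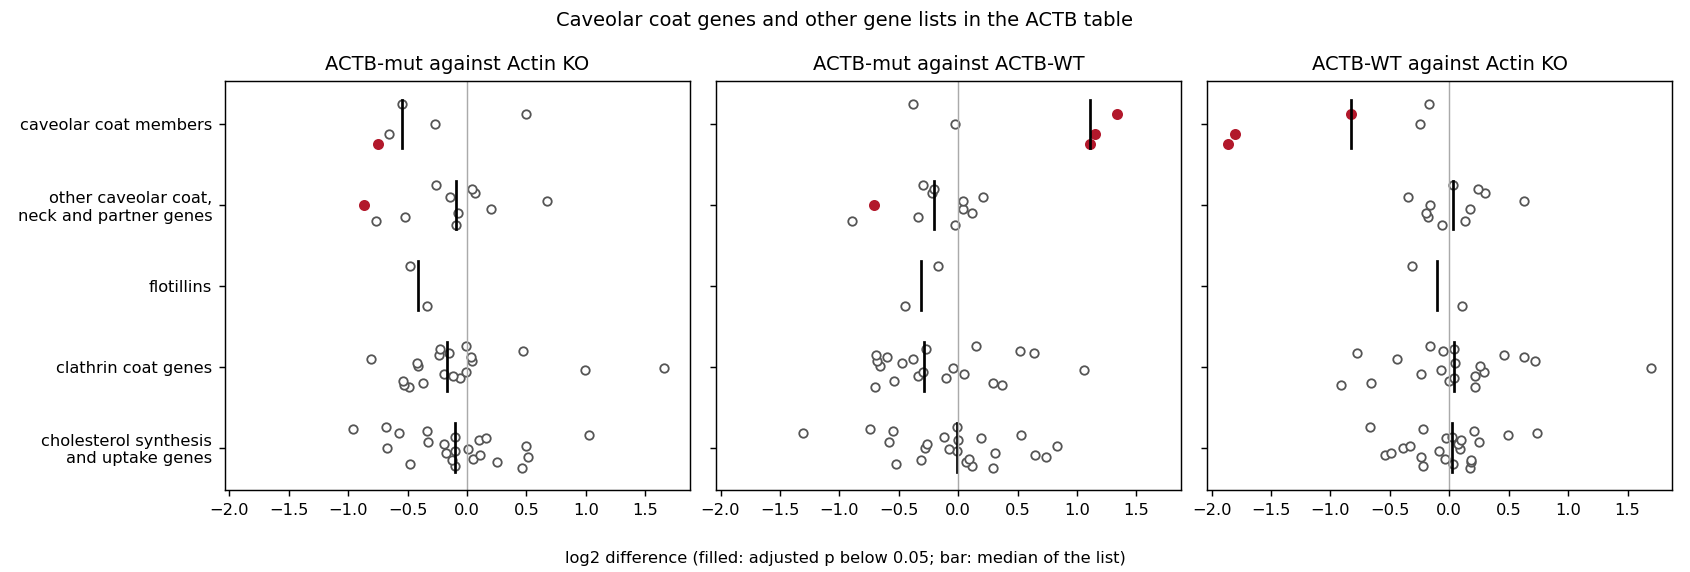
Log2 difference on the horizontal axis for the 5 caveolar coat genes and 4 other lists, down the page, in the 3 comparisons of the ACTB table. Filled points passed an adjusted p of 0.05 in edgeR, and the bar is the median of the list. The caveolar coat genes have medians of -0.55, 1.11 and -0.83, and the other lists lie between -0.41 and 0.04.

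In the SETD3 table none of these lists had a call, where 0.0144% to 0.0578% of all genes were called. For the mean of the lines against CT, the genes named by the lowest p in their list were EHD4 (log2 0.50) and FLNA (-0.29), FLOT2 (-0.36) and FLOT1 (0.11), FCHO1 (-0.60) and AP2B1 (-0.40), and CYP51A1 (-0.53), with adjusted p of at least 0.872 in edgeR. For KO1 against CT they were PACSIN2 (-0.37) and EHD4 (0.31), FLOT2 (-0.36) and FLOT1 (-0.10), CLTC, the clathrin heavy chain (-1.59), and AP2B1 (-0.65), and CYP51A1 (-0.65), with adjusted p of at least 0.809. For KO2 against CT they were EHD4 (0.69) and FLNA (-0.43), FLOT1 (0.32) and FLOT2 (-0.35), HIP1R (-0.68) and BIN1 (0.41), and SREBF2 (-0.57) and CYP51A1 (-0.40). For KO2 against KO1 they were FLNA (-0.27) and EHD4 (0.38), FLOT1 (0.42) and FLOT2 (0.00), CLTC (1.97) and EPN2 (-0.61), and SREBF2 (-0.72). List medians for the mean of the lines were 0.05 for the caveolar partners, -0.12 for the flotillins, -0.14 for the clathrin coat and -0.11 for the cholesterol genes, beside -0.03 for all genes.

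Over the 18 libraries the gene most like CAV1 was CAV2 among 9132 compared, with Pearson's r of 0.95 for log2(CPM + 1) and of 0.96 within each table. The libraries of a group share their genotype and those of a table their scaling, so r describes these libraries and has no test. CENPBD1 (0.83), PRR13 (0.80), DHRS3 (0.78), which reduces retinal, and SIMC1 (0.76) followed. CENPBD1 and PRR13 kept r of 0.76 and 0.89 within the SETD3 table, where DHRS3 and SIMC1 had 0.35 and 0.26. Most opposite to CAV1 were ID3 (-0.86) and ID1 (-0.83), inhibitors of helix-loop-helix transcription factors, and SNF8 (-0.81), and these were negative within both tables, between -0.93 and -0.71. The likeness of CAV1 to CAVIN1 was 0.21 over 18 libraries, and to CAVIN3 it was 0.66 within the ACTB table and -0.16 within the other. CAV1 and EHD2 had r of 0.11 and -0.62 in these tables. CAVIN1 was most like GNA11 (0.79), SURF4 (0.78), PARP16 (0.76), PHETA1 (0.76) and PARL (0.75), all with r of 0.62 or lower among ACTB-table libraries and 0.82 or higher among SETD3-table libraries. Most opposite to CAVIN1 were RBM6 (-0.79), EEF1B2 (-0.78) and CWC15 (-0.77).

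Reads that could belong to more than 1 gene bear on some of these values. CAV1 counts were whole numbers, within 0.005, in 16 of 18 libraries and CAVIN3 counts in all 18, while CAV2 counts were fractional in every library and CAVIN1 and EHD2 counts in most, so part of their reads was shared out by RSEM. Exons of CAV2 overlap with AC002066.1 and those of CAVIN3 with AC068733.3 on the opposite strand. These genes had at most 17 and 7.63 counts in any library, and without the strand setting reads of a gene and its antisense partner cannot be told apart.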

How the data were processed

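Poly(A) RNA-seq libraries, 18 in 6 groups of 3, were analysed from 2 tables of RSEM expected counts, which the authors deposited without normalisation. Per the submitters' processing notes, Trim Galore 0.4.5, cutadapt 1.15, RSEM 1.2.28 and Bowtie2 were used with GRCh38; the annotation release and strand setting are not given in the sources used here. Columns were matched to samples by name, and no column was left out.

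Counts were rounded. Each table was fitted with all 3 groups in edgeR 4.0.16 (R 4.3.3; filterByExpr, TMM, robust quasi-likelihood F test, two-sided), with 13882 and 13846 genes tested. Adjusted p-values are Benjamini-Hochberg over all tested genes, with calls below 0.05. The SE is the absolute log2 difference divided by the square root of F. Transcript length, GC content and positions came from GENCODE release 29, promoters from RefSeq. Ratios of counts within a library were compared by exact permutation. The fits were also run on counts simulated from the fitted spread, with 200 changed genes. Such counts carry no trend with GC content, so that run does not test for one, and its outcome is not used here.

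Alternatives were other scalings, filters and tests (DESeq2 1.42.0, limma 3.58.1), a replicate block, GC offsets, fits of the compared groups, and each library left out. The members and lists were chosen with earlier results of these data known. Named besides the members were called list genes, otherwise the 2 with the lowest p in a list, and the 5 genes most like CAV1 and CAVIN1 with the 3 most opposite; 1 gene of the cholesterol list is not reported here. FAM3C and the wider windows on chromosome 7 were chosen after their values were seen. Precision follows the counts per library, and replicate numbers were not used to pair samples.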

Additional observations from a re-analysis of the deposited data

Results flagged for a closer look

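ACTB-mut and ACTB-WT cells, which the series design places in the same actin knockout, differed in 3 of the 5 genes by the direct test of ACTB-mut against ACTB-WT in edgeR. CAV1 was higher in ACTB-mut by a log2 of 1.11 (adjusted p = 0.0021), with log2 differences from Actin KO of -0.75 in ACTB-mut (adjusted p = 0.0217, passed in 9 of 16 alternatives) and -1.86 in ACTB-WT (adjusted p = 6.39e-06). CAV2 was higher by 1.15 (adjusted p = 0.00995), with -0.66 in ACTB-mut (adjusted p = 0.158) and -1.80 in ACTB-WT (adjusted p = 1.62e-04). CAVIN3 was higher by 1.34 (adjusted p = 0.00291), with 0.50 in ACTB-mut, which did not pass (adjusted p = 0.285, 0 of 16 alternatives), and -0.83 in ACTB-WT, which passed at an adjusted p of 0.0499 and in 3 of 16 alternatives. All 3 ACTB-mut libraries were above all 3 ACTB-WT libraries for each of these genes, as for 9.93% of all genes.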

How the results depend on the processing

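CAV1 and CAV2 in ACTB-WT against Actin KO and CAV1, CAV2 and CAVIN3 in ACTB-mut against ACTB-WT kept direction and call under all 16 alternatives. The cause of the changes below was not tested. For CAVIN3 in ACTB-WT against Actin KO the call was lost with RLE scaling (-0.82), the 1 CPM filter (-0.83), limma-voom (-0.84), GC offsets (-0.77), the compared groups alone (-0.83), the replicate block (-0.83) and block plus GC (-0.78). For ACTB-mut against Actin KO, 2 of the 5 genes passed with no filter, DESeq2 and GC offsets, since CAV2 did (-0.67, -0.67 and -0.82). For the mean of the SETD3 lines, 1 passed in the same settings, CAV1 (0.95, 0.94 and 0.93).

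Genes called numbered 320 for ACTB-WT over Actin KO, 371 for ACTB-mut over Actin KO and 402 for ACTB-mut over ACTB-WT with no filter, and 358, 395 and 446 with DESeq2, against 155, 128 and 172 as reported. In the order KO1 against CT, KO2 against CT, mean against CT, KO2 against KO1, they numbered 58, 68, 85 and 58 with no filter, 72, 90, 91 and 56 with DESeq2, and 11, 30, 16 and 20 with GC offsets, against 2, 8, 6 and 4. Limma-voom called 195 in ACTB-mut against Actin KO and 9 in KO2 against KO1. Fits of the compared groups called 104 in ACTB-mut against ACTB-WT, 1 in KO1 against CT and 1 in KO2 against CT. Library totals gave 5 for KO1 against CT and 10 for the mean.

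The labels did not say whether replicate numbers pair the samples. Deviations of same-numbered libraries correlated at -0.04 to 0.07 among ACTB-table libraries (other pairs -0.06 to 0.06) and at -0.30 to 0.15 among SETD3-table libraries (other pairs -0.30 to 0.31). These ranges are much alike, which does not settle whether samples were paired. With the replicate block, genes called numbered 89, 85 and 83 in the ACTB comparisons, and 0, 1 and 0 for KO1, KO2 and their mean against CT; 0 of the 5 genes passed in ACTB-mut against Actin KO (CAV1 -0.75, adjusted p = 0.063), and CAVIN3 in ACTB-WT against Actin KO lost its call (-0.83, adjusted p = 0.0824). Block and GC offsets together called 57 in ACTB-mut against Actin KO and 92 in ACTB-mut against ACTB-WT.

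Values that changed sign lay between -0.29 and 0.20 as reported, and none had passed. CAVIN1 in ACTB-mut against ACTB-WT was 0.11 with GC offsets and 0.10 with block and GC. EHD2 in KO2 against KO1 was -0.07 with library totals, -0.01 with no filter, -0.19 with limma-voom, 0.00 with the block, -0.04 with GC offsets and -0.03 with both. Without the 2 shallowest SETD3 libraries, a setting chosen after seeing the data, it was -0.39, EHD2 in KO1 against CT 0.04, CAVIN1 in KO2 against CT -0.05 and CAV1 in KO2 against KO1 0.14, with 10 genes called in KO1 against CT and 10 in KO2 against KO1.

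Leaving out 1 library at a time, genes called ranged between 79 and 106, 34 and 77, and 60 and 129 in the ACTB comparisons, and between 0 and 4, 3 and 7, 0 and 7, and 3 and 5 in the SETD3 comparisons. Of the 5 genes 2, 0 and 3 passed in the ACTB comparisons and 0 in the SETD3 comparisons. Log2 ranges were CAV1 -1.94 to -1.79, CAV2 -1.92 to -1.64 and CAVIN3 -0.91 to -0.77 in ACTB-WT against Actin KO, CAV1 -0.81 to -0.69 in ACTB-mut against Actin KO, and CAVIN1 -0.24 to 0.06 in ACTB-mut against ACTB-WT. In KO1 against CT CAVIN3 ran from -0.33 to 0.70 and EHD2 from -0.48 to 0.03. In KO2 against CT CAVIN3 ran from 0.01 to 1.04, CAVIN1 from -0.14 to 0.29 and EHD2 from -0.66 to 0.03. For the mean against CT CAVIN3 ran from -0.16 to 0.87 and EHD2 from -0.47 to 0.03. In KO2 against KO1 CAV1 ran from -0.33 to 0.14 and EHD2 from -0.38 to 0.22. TMM over all 18 libraries moved 1 level beyond its SD, CAVIN1 in KO1 (186.8 CPM). Depth limits CAVIN3 most, with 158 counts in its lowest library.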
